A study of Sinonovacula constricta with 18 samples.

Results

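The comparison described here set the foot of the razor clam Sinonovacula constricta against its intestine, that is, a tissue rich in muscle against a digestive one. Its members were the 6 libraries whose labels name foot (titled muscle) or intestine, 3 of each, out of 18 RNA-seq libraries from 6 tissues, and the other 12 came from siphon, mantle, gill and labial palp. The clams were healthy adults with no treatment or strain named, and each library was made from a pool of 3 individuals, so every value stands for 3 clams together. The replicates of a tissue are described as independent. In the main fit, which holds the replicate number as a block, p-values measure the spread of the foot-to-intestine difference over the numbers. In the fit without the block they measure the spread between these pools. The sources do not say whether the foot pool and the intestine pool with the same number came from the same clams. For every library an estimated read count and an FPKM were deposited for the same 32250 isoform clusters (each a group of long reads taken as 1 transcript, going by the form of their IDs). The clusters carry an ID but neither a gene name nor a sequence, so the tissue labels could not be checked against muscle or digestive markers, and single clusters are described by their rank and values.

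The foot of a burrowing bivalve is a muscular organ that swells with blood, anchors in the sediment and pulls the shell down after it. Its fibres contract through actin and myosin, and molluscan muscle also carries paramyosin and twitchin, proteins known for the slow catch contraction of bivalves. The intestine is lined by ciliated and secretory epithelium that moves, digests and absorbs food. None of these proteins can be tied to a cluster in the deposited tables.

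The estimated reads summed to between 14880761 and 17398968 in foot libraries and between 9982441 and 10505352 in intestine libraries. Foot reads were held by fewer clusters. The clusters needed to reach 50% of all reads numbered 404, 176 and 254 in foot replicates 1, 2 and 3, against 1102, 765 and 768 in intestine replicates 1, 2 and 3. The 10 clusters with the most reads took 8.71%, 15.19% and 12.11% of the foot libraries and 6.06%, 8.14% and 7.38% of the intestine libraries. Both measures separated the tissues without overlap. Depth and this concentration of reads therefore moved together with tissue, and their part in the results was not tested beyond the scalings given below.

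Libraries numbered 1 and 2 resembled each other across the tissues more than those numbered 3. The rank correlation of levels across 25131 clusters was 0.624, 0.629 and 0.493 between the foot and the intestine library of numbers 1, 2 and 3, and libraries of different tissue and different number lay between 0.384 and 0.497, so that number 3 was within their range. Libraries of 1 tissue lay between 0.644 and 0.717. Clusters are not independent, so these values are descriptive. Some clusters followed the number alone. One with many reads in both tissues had 39.3, 6477 and 6578 CPM (reads of the cluster in every 1000000 of the library) in foot replicates 1, 2 and 3 and 61.0, 12579 and 12642 CPM in intestine replicates 1, 2 and 3, a fitted log2 change of 0.12 (standard error 0.30, adjusted p = 0.838, edgeR). In both tissues it was low in replicate 1 and high in the other two. Clusters with at least 10 reads in the foot and the intestine library of a single number, and 0 reads in the other 4 libraries, numbered 409 for replicate 1, 92 for replicate 2 and 56 for replicate 3. The reverse, 0 reads in both libraries of a single number and at least 10 in each of the other 4, was also counted. It was found for 141, 235 and 133 clusters in replicates 1, 2 and 3. These counts are out of all 32250 clusters. The replicate number was kept in the model as a block, and the fit without it is given beside it.

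A total of 28402 clusters reached 10 reads in the sum of the 6 libraries and were tested, and 2002 of them (7.05%) differed between foot and intestine at an adjusted p under 0.05 (edgeR quasi-likelihood test with the replicate block, TMM scaling and Benjamini-Hochberg adjustment over all clusters tested). Of these, 1236 were higher in the foot, 4.35% of the clusters tested, and 766 were higher in the intestine, 2.7% of the clusters tested. The foot-high clusters thus made up 61.7% of the calls. At an unadjusted p under 0.05 there were 4162 clusters higher in foot and 3710 higher in intestine, 7872 together. Without the block the calls came to 1799 foot-high (6.33%) and 1213 intestine-high clusters (4.27%), 3012 in all (10.6% of the clusters tested), of which 1085 and 649 were also called with the block. These shared clusters are 87.8% of the foot-high and 84.7% of the intestine-high calls of the block fit, but 60.3% and 53.5% of the calls without it. In bulk tissue, a lower share of a cell type and less RNA per cell cannot be told apart, and this holds for every difference given here.

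The call rested on narrow margins. The smallest adjusted p was 0.029 and the largest among the called clusters 0.049974, while the nearest cluster outside the threshold had 0.050044 (edgeR). The scaling decided how the calls were divided between the tissues. TMM factors were 0.8166, 0.599 and 0.7509 for the foot libraries and 1.516, 1.376 and 1.305 for the intestine libraries. When libraries were scaled by their totals alone, the median log2 change of all tested clusters was -1.0 in place of -0.05, and 976 clusters were higher in foot against 2180 higher in intestine (30.9% of calls foot-high). Changes are therefore given relative to the TMM centre. No called cluster changed sign in DESeq2, in limma on FPKM, or in edgeR without the block, with the other scalings, with the other filters or without pair 3. These fits used the same libraries, and the called clusters had large changes in them, so the kept signs describe the choice and support nothing.

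**Figure D1:**
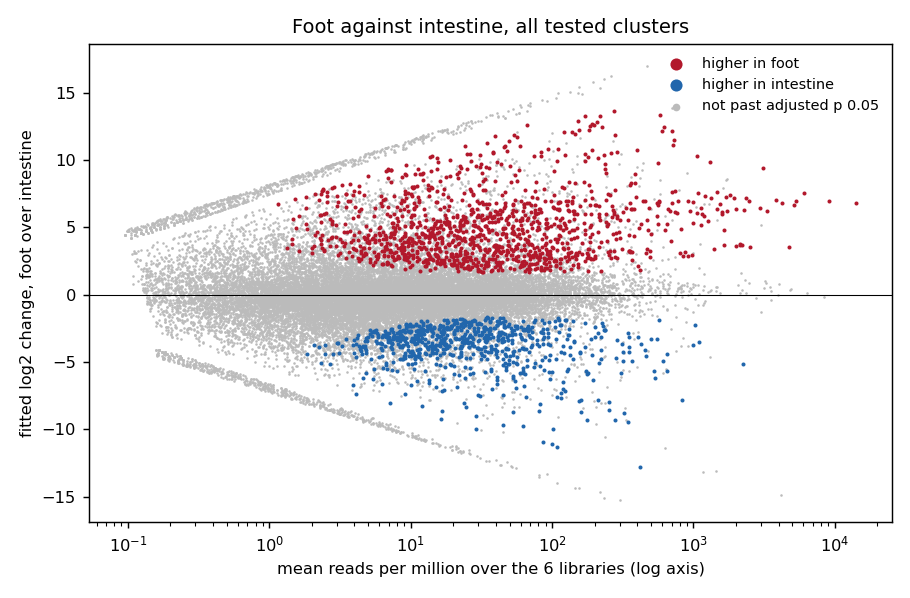
Each point is 1 of the 28402 tested clusters, with its mean level in CPM on a log horizontal axis and its fitted log2 change, foot over intestine, on the vertical axis, and colours mark the 1236 clusters higher in foot, the 766 higher in intestine and the rest. At the right end, among the 100 clusters of at least 1000 CPM, 43 were foot-high and 3 intestine-high.

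The changes called were large in both directions, and which direction had the larger ones depended on the scaling. With TMM, the median size of the fitted log2 change was 4.55 for foot-high clusters, with quartiles of 3.14 and 6.38 and a largest value of 13.60. For intestine-high clusters the median was 3.40, with quartiles of 2.70 and 4.37 and a largest value of 12.82. At least 16-fold differences were fitted for 734 of the 1236 foot-high clusters (59.4%) and for 254 of the 766 intestine-high clusters (33.2%), and at least 64-fold ones for 363 (29.4%) and 67 (8.75%). Scaled by library totals, the same clusters had medians of 3.60 for foot-high and 4.35 for intestine-high, and 43.9% and 63.6% of them reached 16-fold. The order of the tissues in the size of change therefore turned with the scaling. The smallest changes called were 1.67 and 1.68 on the log2 scale, with 37 clusters under 4-fold in each direction. The sizes entered the choice of the clusters and are a description with no test.

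**Figure D2:**
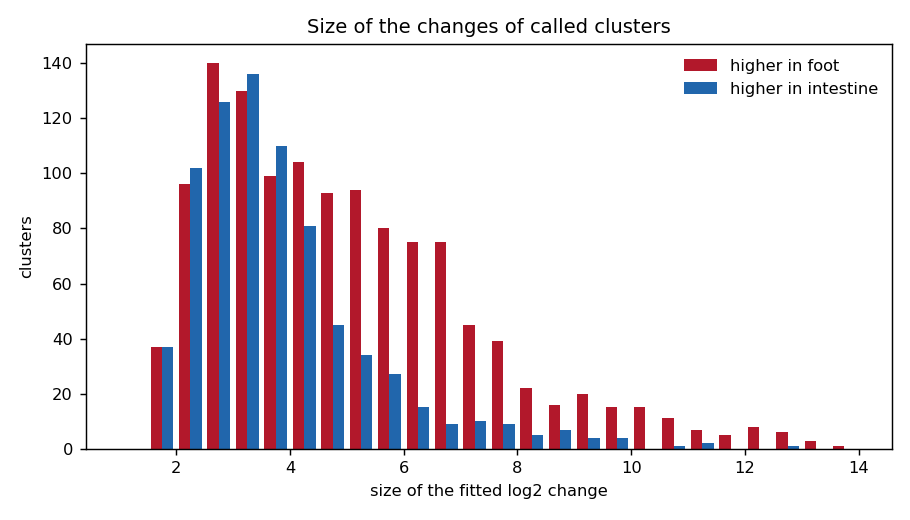
Counts of called clusters by the size of their fitted log2 change, for clusters higher in foot and clusters higher in intestine. The foot-high distribution has its median at 4.55 with 363 clusters of at least 64-fold, and the intestine-high one at 3.40 with 67 such clusters, all with TMM scaling.

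The same 3 pairs chose the called clusters, so their agreement in direction describes the choice and supports nothing. Of the foot-high clusters, 1227 of 1236 were higher in foot in 3 of 3 same-numbered pairs, and 757 of 766 intestine-high clusters were higher in intestine in 3 of 3. For all tested clusters the corresponding shares were 24.7% and 26.2%. The 3 foot libraries did not overlap the 3 intestine libraries in 1199 foot-high clusters (97.0%) and 746 intestine-high clusters (97.4%), where all tested clusters gave 16.4% and 16.7%. Median log2 ratios in pairs 1, 2 and 3 were 4.4, 4.53 and 4.42 for the foot-high clusters. For the intestine-high clusters they were 3.26, 3.52 and 3.36 in favour of the intestine. These ratios were taken after TMM scaling with 0.05 CPM added. Within a cluster the median range over the 3 pairs was 1.0 for foot-high and 0.87 for intestine-high clusters.

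Clusters chosen in 2 pairs could be followed in the pair that had no part in the choice. With pair 3 left out, edgeR with the block called 1310 foot-high and 571 intestine-high clusters, of which 898 and 389 were among the calls of the 3 pairs. In pair 3, 94.8% of these foot-high clusters were higher in foot, where 46.1% of all tested clusters were. Of the intestine-high clusters, 93.2% were higher in intestine there, where 47.7% of all tested clusters were. With pair 1 or pair 2 left out, edgeR with the block called 0 clusters, with 5390 and 5365 at an unadjusted p under 0.05 and smallest adjusted p of 0.174 and 0.179. DESeq2 with the block, a choice added after seeing the data, called 1590 foot-high and 642 intestine-high clusters without pair 1, and 1501 and 570 without pair 2. Of these, 94.0% and 90.3% had the same direction in pair 1, where 47.1% of all tested clusters were higher in foot and 47.9% in intestine. In pair 2 the shares were 94.5% and 88.6%, and those of all tested clusters 43.8% and 47.0%. Without pair 3 DESeq2 called 5104 and 3873, the longest lists, and 86.4% and 86.8% of them had the same direction in pair 3, the lowest shares for DESeq2. With the block, the number of edgeR calls depended on pairs 1 and 2. Without the block, in fits added after seeing the data, edgeR called 0 clusters whichever pair was left out. The smallest adjusted p there were 0.0989, 0.115 and 0.108 without pairs 1, 2 and 3 (edgeR).

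The share of clusters called grew with their level, throughout for foot-high clusters but not for intestine-high ones. Among 3966 clusters with a mean under 1 CPM, edgeR with the block called 0, with 193 at an unadjusted p under 0.05, 32 called without the block and 157 called by DESeq2. Between 1 and 10 CPM it called 3.37% of 12329 clusters, between 10 and 100 CPM 11.5% of 10399, and between 100 and 1000 CPM 21.7% of 1608. Of the 100 clusters with 1000 CPM or more, 46.0% were called, and their median log2 change was 3.54 towards the foot. Levels in CPM are not per length, so a long transcript counts for more. Among the 100 clusters with the highest mean CPM in foot, 63 were foot-high and 0 intestine-high, whereas among the 100 highest in intestine 14 were intestine-high and 1 was foot-high. The lists shared 24 clusters. Foot-high clusters had a median of 56.5 CPM in foot and 4.42 CPM in intestine, and intestine-high clusters a median of 1.88 CPM in foot and 44.1 CPM in intestine. The lists and medians come from the libraries that made the calls, so they describe the choice and support nothing.

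The foot-high cluster with the highest mean CPM, i3_ICE_sample8a197f|c6316/1/3648.1, had 3978, 47921 and 31305 CPM in foot replicates 1, 2 and 3, against 85.2, 817 and 453 CPM in intestine replicates 1, 2 and 3. Replicate 1 was the lowest in both tissues, yet every foot library was above every intestine library. Its fitted log2 change was 6.81 (standard error 0.44, adjusted p = 0.029, edgeR with the block). Without the block the adjusted p was 0.0533, and with pair 1 or pair 2 left out it was 0.174 or 0.179 (edgeR). Per length it had 2919, 35310.5 and 23001 FPKM in foot and 62.4, 596 and 332 FPKM in intestine. Outside the 2 tissues compared, siphon libraries had 2899 to 26379.6 CPM of this cluster, mantle libraries 3679 to 5716, gill libraries 267 to 1698 and labial palp libraries 230.4 to 1217.

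Other foot-high clusters were steadier between pools. The second in rank had 16251, 20719.6 and 16811 CPM in the foot libraries and 277, 331 and 237 CPM in the intestine libraries, a log2 change of 6.96 (standard error 0.40, adjusted p = 0.029, edgeR). Here the libraries of each tissue lay close together and far from those of the other. The tenth in rank had the widest spread of intestine values by ratio among the 10, with 5751, 7256 and 5669 CPM in foot and 17.4, 71.7 and 4.20 CPM in intestine (log2 change 9.41, standard error 1.09, adjusted p = 0.0357, edgeR). Its means were 3814 CPM in siphon and 50.4 CPM in labial palp. The smallest change among the 10 was that of the seventh, with 5588, 11332 and 7695 CPM in foot and 1009.6, 1292 and 1701 CPM in intestine (log2 change 3.55, adjusted p = 0.0411, edgeR). All 10 foot-high clusters at the top were free of overlap between the tissues.

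The intestine-high cluster with the highest mean CPM, i4_ICE_sample8a197f|c73/6/4954, had 62.3, 45.7 and 79.1 CPM in foot replicates 1, 2 and 3, against 2375, 4577 and 6367 CPM in intestine replicates 1, 2 and 3. The intestine libraries differed among themselves, yet each was far above the foot. Its fitted log2 change was -5.12 (standard error 0.45, adjusted p = 0.03, edgeR with the block), and the adjusted p was 0.174 or 0.179 with pair 1 or pair 2 left out (edgeR). Mantle libraries had 202 to 532 CPM and labial palp libraries 343 to 627 CPM of it. The fifth in rank had the largest change of the 10, with 6.45, 4.54 and 1.33 CPM in foot and 1075, 1496 and 2404 CPM in intestine (log2 change -7.79, standard error 1.11, adjusted p = 0.0468, edgeR). It was no higher in intestine than in labial palp, where its mean was 2569 CPM. One pool carried much of the seventh, with 22.8, 40.1 and 6.99 CPM in foot and 389, 3062 and 356 CPM in intestine, replicate 2 being the highest in both tissues (log2 change -4.39, adjusted p = 0.0425, edgeR). The fourth had the smallest change, -2.22, with 188, 149 and 288 CPM in foot and 1907, 1580.5 and 1998 CPM in intestine. Its labial palp mean, 2219.9 CPM, was above every intestine library, as was that of the eighth (2387 CPM against 446, 1485 and 1656). The second had a gill mean of 2393 CPM, against 1607, 2031 and 2597 CPM in intestine. For the remaining ranks, every intestine library was above the means of siphon, mantle, gill and labial palp.

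**Figure D3:**
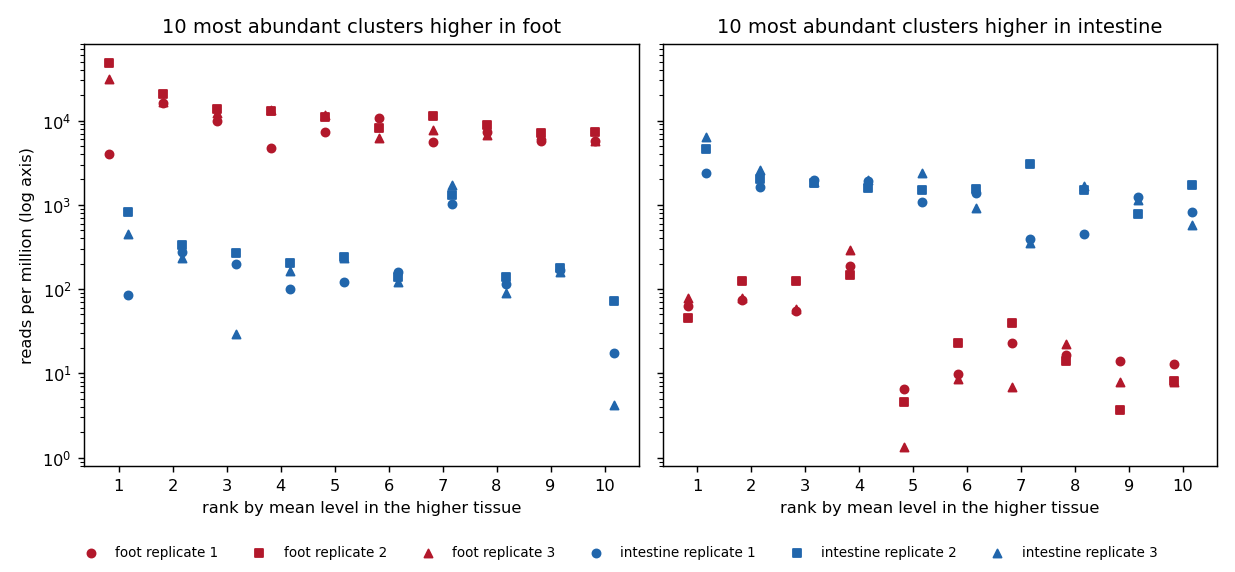
CPM in each library, on a log axis, for the 10 clusters with the highest mean CPM among those higher in foot and the 10 among those higher in intestine, with 3 points for foot and 3 for intestine at each rank. Among foot-high ranks the foot points reach 47921 CPM and the points of the 2 tissues stay apart, while the intestine-high ranks reach 6367 CPM in intestine.

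Clusters with a high level in both tissues were also present. The one with the highest mean CPM of those under 2-fold had 4076, 6532 and 5066 CPM in foot and 8313, 12867 and 13120 CPM in intestine. On the CPM scale the intestine libraries were the higher ones without overlap, but relative to the TMM centre the fitted log2 change was -0.16 (standard error 0.34, adjusted p = 0.799, edgeR). Of the 100 clusters of at least 1000 CPM, 34 had a fitted change under 2-fold.

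A cluster was taken as on in a tissue with at least 10 reads in each of its 3 libraries and as off with 0 reads in each of 3. By this rule, 194 clusters were on in foot and off in intestine, and 88 were on in intestine and off in foot. Foot libraries were deeper, so 10 reads was a lower level there. With at least 1 CPM in each library in place of 10 reads, the counts were 169 and 87. The 194 foot clusters had a median of 7.10 CPM in foot, from 0.712 to 937 CPM, and the 88 intestine clusters a median of 8.18 CPM in intestine, from 1.72 to 465 CPM. A count of 0 allows up to 0.286 to 0.301 CPM in an intestine library and up to 0.172 to 0.202 CPM in a foot library (3 reads, counting error only), so off means under these levels. Against a floor of 3 reads over the 3 libraries, the 194 were at least 7.25-fold to at least 9369-fold higher in foot, and 105 of them at least 64-fold. The 88 were at least 27.6-fold to at least 7432-fold lower in foot than in intestine, and 71 of them by at least 64-fold. The 194 held 0.723%, 0.488% and 0.668% of the reads of the foot libraries, and the 88 held 0.233%, 0.246% and 0.27% of those of the intestine libraries.

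None of these on/off clusters passed the threshold in edgeR with the block, 0 of 194 and 0 of 88, although 191 and 83 had an unadjusted p under 0.05 and the smallest adjusted p were 0.0539 and 0.0562. The same 6 libraries chose the on/off clusters, so these p-values and the calls below describe the choice and support nothing. Among all 28402 clusters tested, 7872 had an unadjusted p under 0.05 (edgeR with the block). Over all of them DESeq2 called 4029 foot-high and 3138 intestine-high clusters, and edgeR without the block 1799 and 1213. The number of on/off clusters called depended on the fit. DESeq2 with the block called 193 and 86, edgeR without the block 174 and 71, and limma on log2(FPKM + 0.1) 184 and 87, whereas edgeR with the block and library totals called 23 and 13. The foot on/off cluster with the highest mean CPM, i2_ICE_sample8a197f|c87140/1/2273, had 1376, 524 and 912 CPM in foot replicates 1, 2 and 3, that is 20483, 9109 and 14348 reads, and 0 reads in 3 of 3 intestine libraries. It was at least 9369-fold higher in foot (adjusted p = 0.0539, edgeR with the block, not called). Siphon libraries had 767 to 1106 CPM of it, while mantle, gill and labial palp libraries had between 0.0 and 4.94 CPM. The intestine on/off cluster with the highest mean CPM, i1_ICE_sample8a197f|c284938/1/1869, had 0 reads in 3 of 3 foot libraries and 426, 527 and 443 CPM in intestine replicates 1, 2 and 3, from 4475, 5256 and 4531 reads (adjusted p = 0.0562, edgeR with the block, not called). It was also at 0 in 3 of 3 siphon libraries and at 118 to 412 CPM in gill libraries and 132 to 367 CPM in labial palp libraries.

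The 12 libraries with no part in the choice showed where else the on/off clusters were read. Of the 194 foot clusters, 152 were on in siphon, 72 in mantle, 61 in gill and 58 in labial palp. The order was different for the 88 intestine clusters, of which 10 were on in siphon, 15 in mantle, 40 in gill and 36 in labial palp. In siphon, 4 of the 194 foot clusters and 23 of the 88 intestine clusters had 0 reads in 3 of 3 libraries. Siphon libraries held 14701660 to 17970120 reads, and mantle, gill and labial palp libraries 10677055 to 12116543. Of all 32250 clusters, 21216 to 24476 had at least 10 reads in a single siphon library. The ranges were 21473 to 22547 in mantle, 22430 to 24551 in gill and 22386 to 24602 in labial palp. The part of depth in these counts was not tested. There was no cluster of either list with 0 reads in all 4 other tissues, so none was read in foot alone or in intestine alone among the 6 tissues.

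**Figure D4:**
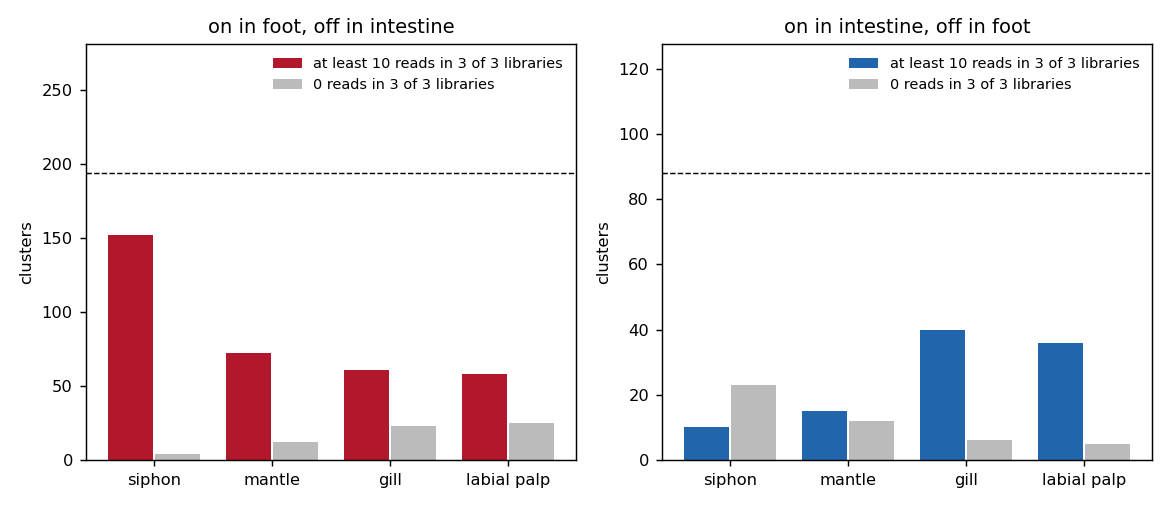
Number of foot on/off clusters (of 194) and intestine on/off clusters (of 88) that were on, with at least 10 reads in 3 of 3 libraries, or at 0 reads in 3 of 3 libraries, in each of the other 4 tissues. The dashed line is the full list, and the siphon holds 152 of the foot clusters but 10 of the intestine clusters.

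On/off clusters were part of a larger group with separate tissues but no call. Among clusters without overlap and at least 16-fold apart in CPM pooled over the libraries of a tissue, 566 of 1085 higher in foot and 730 of 1193 higher in intestine were not called by edgeR with the block. DESeq2 called 565 of the 566 and 654 of the 730. Their separation in the same 6 libraries chose these clusters, so the calls among them describe the choice and support nothing. Over all 28402 clusters tested, DESeq2 called 4029 foot-high and 3138 intestine-high. A library at 0 reads in the lower tissue was present in 513 and 465 of the uncalled clusters, against 176 of the 1236 foot-high and 40 of the 766 intestine-high clusters. The uncalled ones held 4.65%, 5.50% and 5.16% of the reads of the foot libraries and 4.48%, 4.51% and 5.08% of those of the intestine libraries. One of them, chosen after its values were seen, had 2.22, 0 and 0 CPM in foot and 9833, 8066 and 7256 CPM in intestine, a higher level in intestine than any called intestine-high cluster (adjusted p = 0.0641 with the block and 0.0498 without it in edgeR, 3.08e-13 in DESeq2). The called lists thus leave out many clusters that were at or near 0 in one of the tissues.

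Foot-high clusters held 35.1%, 43.9% and 40.5% of all reads in foot replicates 1, 2 and 3, on average 39.8% ± 4.44 (SD, n = 3), and 2.56%, 2.87% and 2.64% in intestine replicates 1, 2 and 3, on average 2.69% ± 0.161 (SD, n = 3). Intestine-high clusters held 0.379%, 0.336% and 0.461% of the foot libraries, on average 0.392% ± 0.0635 (SD, n = 3), and 7.36%, 9.20% and 9.52% of the intestine libraries, on average 8.69% ± 1.17 (SD, n = 3). These 6 libraries chose the clusters, so no test is given. The 10 foot-high clusters with the most reads alone took 7.74%, 14.9% and 11.9% of the foot libraries, and foot replicate 1 was the lowest. Without them the foot-high share of foot reads was 28.3%. The 10 top intestine-high clusters took 1.32%, 2.01% and 1.99% of the intestine libraries. As a share of summed FPKM, which counts abundance per length, the foot-high clusters made up 36.1% of foot and the intestine-high clusters 9.90% of intestine. In the pair left out of the choice, the foot-high clusters chosen by edgeR without pair 3 held 42.4% of the foot library and 2.72% of the intestine library of that pair. The intestine-high ones held 0.3% of its foot library and 7.70% of its intestine library.

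In the tissues with no part in the choice, foot-high clusters held most in the siphon, with 29.6%, 34.5% and 33.0% of the reads of replicates 1, 2 and 3 (32.4% ± 2.51, SD, n = 3). Mantle libraries followed at 11.7% ± 0.751 (SD, n = 3), gill libraries at 7.78% ± 0.922 (SD, n = 3) and labial palp libraries at 6.87% ± 0.574 (SD, n = 3). Each was above the intestine, but the list was chosen to be low there. By their means, the tissues stood in the opposite order for the intestine-high clusters. They held 0.646% ± 0.116 (SD, n = 3) of siphon, 2.19% ± 0.217 (SD, n = 3) of mantle, 4.31% ± 0.39 (SD, n = 3) of gill and 6.01% ± 0.735 (SD, n = 3) of labial palp libraries. Between these 4 tissues, 12 comparisons were made by an exact two-sided permutation test, and 11 had no overlap between libraries and p = 0.1 (adjusted 0.109), the smallest that 3 against 3 allow, so that 0.05 could not be reached. Gill and labial palp overlapped in the foot-high share (exact p = 0.2, adjusted 0.2).

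**Figure D5:**
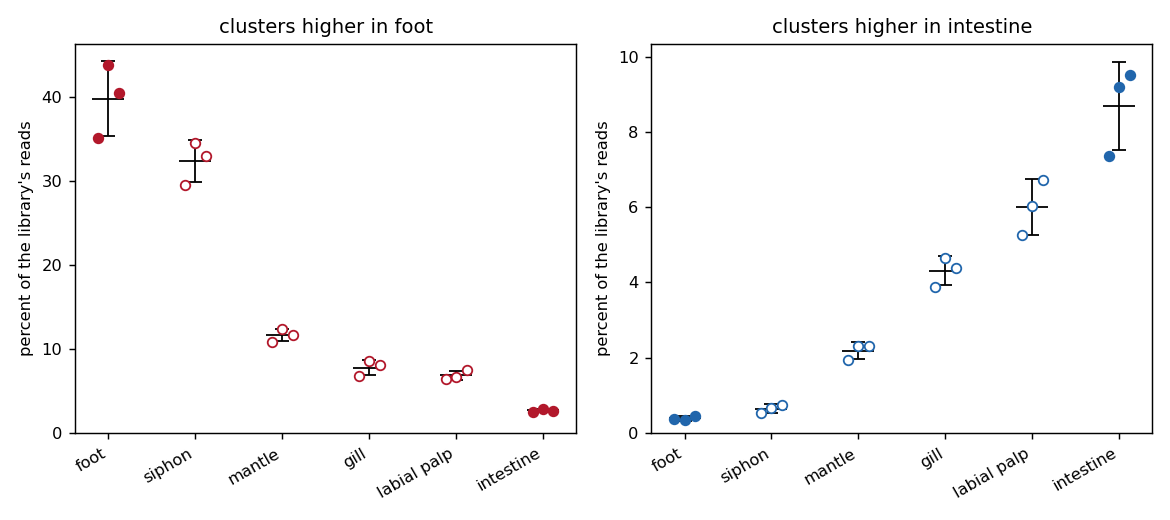
Percent of each library's reads held by the 1236 foot-high and the 766 intestine-high clusters in the 6 tissues, with a point per library (filled where the library took part in the choice) and black lines for the tissue mean ± SD (n = 3). The foot-high share goes down in the order foot (39.8%), siphon, mantle, gill, labial palp and intestine (2.69%), and the intestine-high share goes up in the same order to 8.69% in intestine. The places of foot and intestine at the ends follow from the choice of the clusters.

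On the CPM scale, the siphon stood cluster by cluster at a median of 87.0% of the foot level for the foot-high clusters, and 473 of 1236 (38.3%) were as high or higher there than in foot. The medians were 36.2% in mantle, 30.3% in gill, 28.2% in labial palp and 8.31% in intestine. For the intestine-high clusters, labial palp stood at a median of 77.7% of the intestine level, with 290 of 766 (37.9%) as high or higher there, and gill at 59.4%. Mantle was at 22.0%, siphon at 5.98% and foot at 4.92%. Thus 82.5% of the foot-high clusters had at least 50% of their foot level in siphon, and 64.8% and 56.8% of the intestine-high ones had at least 50% of their intestine level in labial palp and gill. Other pairs of tissues were fitted in the same way (edgeR), with calls also given as percent of the clusters tested in that pair. Foot against siphon gave 27 calls with the block (0.0953%) and 2 without it (0.00706%). Foot against gill gave 5288 (18.5%) and 2368 (8.28%), and foot against labial palp 1863 (6.51%) and 2420 (8.45%). Foot against intestine had 2002 (7.05%) and 3012 (10.6%). Foot against mantle gave 0 with the block, with 4054 at an unadjusted p under 0.05, and 462 (1.63%) without it. Siphon against intestine gave 2337 (8.14%) and 3061 (10.7%) calls, and labial palp against intestine 2187 (7.73%) and 660 (2.33%). Mantle and gill against intestine each gave 0 with the block, with 4950 and 5647 at an unadjusted p under 0.05, but 1202 (4.23%) and 817 (2.86%) without it. Counts with and without the block stood in different orders, so they do not rank the tissues by likeness. These pairs share libraries and are given side by side only.

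Foot-high and intestine-high clusters differed in length and in the form of their ID. The effective length, which follows from the deposited count and FPKM, had a median of 1753 bases in foot-high, 1065 bases in intestine-high and 1362 bases in all tested clusters with a value. IDs ending in a dot and a number, whose meaning is not given in the sources used here, made up 16.9% of foot-high, 63.6% of intestine-high and 41.0% of all tested clusters. Among clusters without this ending, the median lengths were 1851 bases in foot-high, 1674 in intestine-high and 1692 in all. Among those with it they were 964, 682 and 727 bases. With the ending removed, the foot-high clusters came from 1223 distinct IDs and the intestine-high ones from 732, and 1 ID was present in both. Reads of near-identical clusters could have been divided between them by the counting, so a value of 1 cluster need not be that of a gene.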

How the data were processed

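Per the submitters' processing notes, RSEM, Bowtie2 and DESeq 1.10.1 were used, with settings that these notes do not give. The labels give a library kit for Illumina, although the design text mentions sequencing on a Pacific Biosciences machine. The estimated counts of reads that the authors deposited for each isoform cluster were rounded to whole numbers here. The FPKM deposited beside it was scaled by the authors for transcript length and library total. Groups and replicate numbers were taken from the sample titles. Of 32250 clusters, those with at least 10 reads over the 6 libraries were tested with edgeR 4.0.16 (R 4.3.3, TMM, quasi-likelihood F-test, replicate block, p adjusted by Benjamini-Hochberg, called under 0.05). Alternatives were limma 3.58.1 on log2(FPKM + 0.1) and log2(FPKM + 1), DESeq2 1.42.0, and other scalings, filters, thresholds and left-out libraries. The scripts were tested on simulated data.

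Replicate numbers were checked by the correlation of same-numbered deviations from the tissue means. It was 0.664, 0.541 and 0.261 for numbers 1, 2 and 3, all above 0.1, and between -0.495 and -0.0111 for unlike numbers. Deviations from a mean of 3 libraries sum to 0, so positive values for like numbers push those for unlike numbers below 0. The contrast is therefore partly built in. For number 3 the correlation of levels, 0.493, lay within the range of unlike numbers, 0.384 to 0.497. Libraries of 1 tissue differed by more than sampling noise (chi-square per degree of freedom 142 to 335). CPM are reads in every 1000000 of the library total, and overlap and pair direction were counted on CPM after TMM scaling. The filter left out 3848 clusters, 2513 of them at 0 in the 6 libraries. The members and lists were chosen with earlier results of these data known. Clusters named by ID were, in each direction, the called one and the on/off one with the highest mean CPM. The rule asked for called on/off clusters, of which there were 0, so uncalled ones are named. Intervals and limits from counts of 0 cover counting error only. No sequences are shown, since none were used here.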

Additional observations from a re-analysis of the deposited data

How the results depend on the processing

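Precision is limited by 3 pairs of pools, and the part of depth was not tested. Counts of calls moved with the method. No called cluster changed sign in the fits compared, but the same libraries had chosen these clusters with changes of at least 1.67 on the log2 scale. The kept signs are therefore no support. The number of foot-high clusters, 1236, was 4029 with DESeq2, 1911 and 1918 with limma on log2(FPKM + 0.1) and log2(FPKM + 1), 3135 with all 18 libraries in the fit, and 817 when tested against a 2-fold change. The number of intestine-high clusters, 766, was 1213 without the replicate block, 3138 with DESeq2, 2180 with library totals, 5639 and 6015 with limma at the 2 pseudocounts, 2591 with all 18 libraries, and 363 against a 2-fold change. Without the replicate block 1799 clusters were foot-high. The fit with all 18 libraries also had no block, so 1799 and 1213 are the counts to set beside it. FPKM and library totals share the same scaling, and the share of calls higher in foot fell below 50% with both. At an adjusted p under 0.01 edgeR called 0 in each direction, with 7872 clusters at an unadjusted p under 0.05, and DESeq2 called 5415.

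With 1 number or 1 library left out, foot-high clusters lay between 0 and 1310 and intestine-high clusters between 0 and 601. The count was 0 without pair 1, without pair 2 and, in fits added after seeing the data, without the block and any 1 pair, in which an unadjusted p under 0.05 was found for 4806 to 5337 clusters. In the fits without the block and 1 library, the lowest counts were 800 and 365, both without intestine replicate 2. Called clusters of at least 16-fold lay between 0 and 949 for foot (734 with all pairs) and between 0 and 301 for intestine (254), and the intestine count was 471 as a ratio of mean CPM and 476 as a ratio of CPM pooled over the libraries of a tissue, an alternative added after seeing the data. The on/off clusters, 194 and 88, became 327 and 149 with up to 3 reads allowed in the other tissue, 104 and 42 with at least 50 reads in each library, and lay between 351 and 385 and between 195 and 233 with 1 pair left out, where the rule asks for fewer libraries.

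The foot-high share of foot reads, 39.8%, was 28.3% without its 10 top clusters, and lay between 38.5% and 64.8% in the pair left out of the choice. The intestine-high share of intestine reads, 8.69%, was 11.1% without the block, 6.92% without its 10 top clusters, 9.90% of summed FPKM, and lay between 7.70% and 27.7% in the pair left out. The upper ends come from the DESeq2 choice without pair 3, with 5104 and 3873 clusters. With edgeR and the block, 0 clusters were chosen without pair 1 or pair 2, so these gave no share. The other alternatives left these counts and shares within 1.5 times or 1 SD of the values reported, and none reversed. The cause of these differences was not tested.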
